A study of Mus musculus with 7 samples.

Results

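The 4 hippocampal 5-hydroxymethylcytosine (5hmC) libraries labelled Tet2 CKO, out of 7 libraries in the series, fell into 2 unlike pairs, and these pairs are compared here: replicates 2 and 3 against replicates 1 and 4. The pairs were chosen by the measured read profiles themselves, in which replicates 2 and 3 resembled each other and differed from the other libraries. All differences between the pairs are therefore descriptions, given without a test, and they support nothing about the genotype. Every Tet2 CKO library came from the hippocampus of unstressed C57BL/6 mice carrying a conditional knockout of Tet2, and the 3 WT libraries came from unstressed wild-type C57BL/6 mice. The labels give no ages, do not name the Cre driver or the cells in which Tet2 was deleted, and do not say whether each library was made from a separate animal. In what follows, "replicate" without a group name means a Tet2 CKO library. The comparison used 4944446 of 4944695 autosomal bins of 500 bp (build mm9), summed to 247240 windows of 10 kb and 24731 windows of 100 kb. The 249 bins left out had a mean of more than 100 reads over the 7 libraries. Of the windows, 226979 of 10 kb and 23957 of 100 kb held enough reads to be compared, that is, a mean of at least 20 and 200 reads.

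TET enzymes oxidise 5-methylcytosine to 5hmC, and TET2 is one of the members of this family expressed in the brain. 5hmC is abundant in neurons, where it lies mainly over the bodies of transcribed genes and over enhancers and is sparse in gene-poor DNA. An antibody against 5hmC pulls down fragments that carry the mark, so a 5hmC library normally has broad hills over gene-rich DNA and valleys between them. How far libraries of 1 group share these hills and valleys is the subject of the comparison.

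Replicates 2 and 3 kept a smaller part of their reads in the compared bins than replicates 1 and 4 did. The compared autosomal bins held 28.4% of the 39224160 reads of replicate 2 and 24.4% of the 49414761 reads of replicate 3. They held 48.0% of the 26134505 reads of replicate 1 and 48.1% of the 28969252 reads of replicate 4. The kept reads were close in number, at 11146988 in replicate 2, 12062783 in replicate 3, 12551442 in replicate 1 and 13946166 in replicate 4. In WT the kept part was 68.8%, 44.3% and 48.8% for replicates 1, 2 and 3. WT replicate 1 also stood apart from the other WT libraries in its profile, as its values below show. The widest Wilson 95% interval of these shares, and of the shares of filled and even bins below, spans 0.0627 points each way. It takes reads and bins as independent, which they were not, so it understates even the counting error. It does not measure the spread between libraries. Levels are given in RPM, the reads of a window per 1000000 kept autosomal reads. The part that the unequal kept share has in the differences below was not tested.

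The reads of replicates 2 and 3 were gathered into fewer bins. With every library thinned at random to 11146988 reads, 37.0% of bins in replicate 2 and 39.6% in replicate 3 held a read, against 52.5% in replicate 1 and 54.6% in replicate 4. The WT libraries lay at 57.5%, 52.1% and 57.0%. A filled bin held on average 6.09 reads in replicate 2 and 5.69 in replicate 3, but 4.29 in replicate 1 and 4.13 in replicate 4. Bins with at least 20 reads numbered 97202 in replicate 2 and 98747 in replicate 3, where they held 23.8% and 24.4% of the thinned reads. The same class had 11579 bins in replicate 1 and 9811 in replicate 4, with 2.49% and 2.12% of the reads. The full bins of replicates 2 and 3 coincided in part. Of the bins with at least 20 reads, 48653 were shared by replicates 2 and 3, which is 50.1% of the list of replicate 2 and 49.3% of that of replicate 3. Replicates 1 and 4 shared 1639 such bins, 14.2% of the list of replicate 1 and 16.7% of that of replicate 4. Such bins were 1.97% and 2.00% of all bins in replicates 2 and 3, and 0.234% and 0.198% in replicates 1 and 4. The overlaps within the pairs are therefore not like for like. Between the pairs, 2225 to 2844 bins were shared, which is 22.7% to 24.6% of the lists of replicates 1 and 4 and 2.25% to 2.93% of those of replicates 2 and 3. Replicates 1 and 4 thus shared a larger part of their lists with the other pair than with each other, but the lists differ widely in length and the percentages are not like for like. Few full bins were empty everywhere else. In replicate 2, 9 of the 97202 bins were empty in the 3 other Tet2 CKO libraries, and in replicate 3 it was 10 of the 98747. Full bins also adjoined each other more often in this pair, since the bin after one with at least 10 reads again held at least 10 in 52.2% of cases in replicate 2 and 55.0% in replicate 3. In replicates 1 and 4 this share was 21.0% and 19.5%, and in WT replicates 1, 2 and 3 it was 31.7%, 21.3% and 19.1%. Of all bins, 7.18% and 6.81% held at least 10 reads in replicates 2 and 3, against 4.20% and 3.86% in replicates 1 and 4. In WT these were 4.62%, 4.24% and 3.51% of all bins.

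Reads came mostly in even numbers in all 7 libraries. Even counts made up 82.1% of the filled bins of replicate 1, 81.8% of replicate 4, 75.0% of replicate 2 and 72.0% of replicate 3, and 71.4% to 83.5% in WT. In replicate 2, 152152 bins held 1 read and 623389 bins held 2. Reads in this table are thus not independent draws, and their true counting error is larger than the number of reads alone would give.

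**Figure D1:**
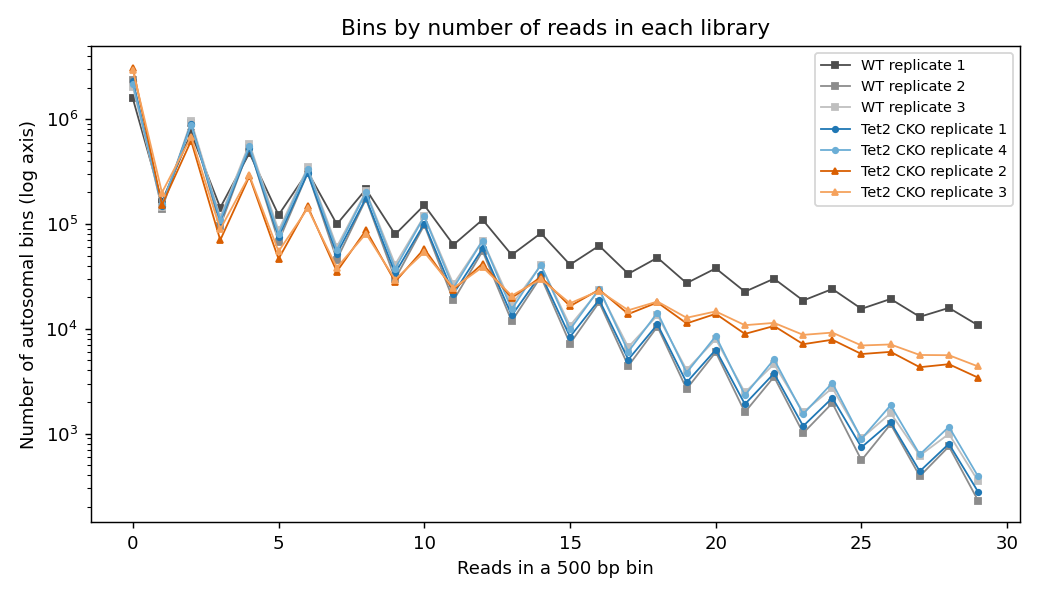
Number of autosomal 500 bp bins (log axis) by the number of reads they held, for each of the 7 libraries before thinning. The lines alternate between even and odd counts at low numbers of reads, and from 20 reads upward replicates 2 and 3 (triangles) lie above replicates 1 and 4 (circles). WT replicate 1 has the most kept reads (28885986) and the most bins in that range.

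The likeness of the pairs depended on the scale at which the genome was viewed. Across 100 kb windows, log2 levels of replicates 2 and 3 correlated at r = 0.955 and those of replicates 1 and 4 at r = 0.926. Between the pairs, the 4 correlations ran from -0.106 to -0.047 (Spearman's rho from -0.152 to -0.0966). The sign of the highest of these turned to 0.484 with no filter on low counts, which adds nearly empty windows, and to 0.0998 with no bins left out. Across 10 kb windows the values were 0.828 for replicates 2 and 3, 0.663 for replicates 1 and 4, and 0.263 to 0.310 between the pairs. The pairs thus had more of the local pattern in common than of the broad one. In 500 bp bins, replicates 2 and 3 still correlated at 0.536, where replicates 1 and 4 had 0.178 and the values between the pairs ran from 0.153 to 0.175. In windows of 1000 kb, both pairs were almost identical within themselves (0.988 for each), while between the pairs r ran from -0.466 to -0.413. The windows of a library share its depth and are not replicates, and the pairs were chosen on these profiles. These values therefore carry no p.

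**Figure D2:**
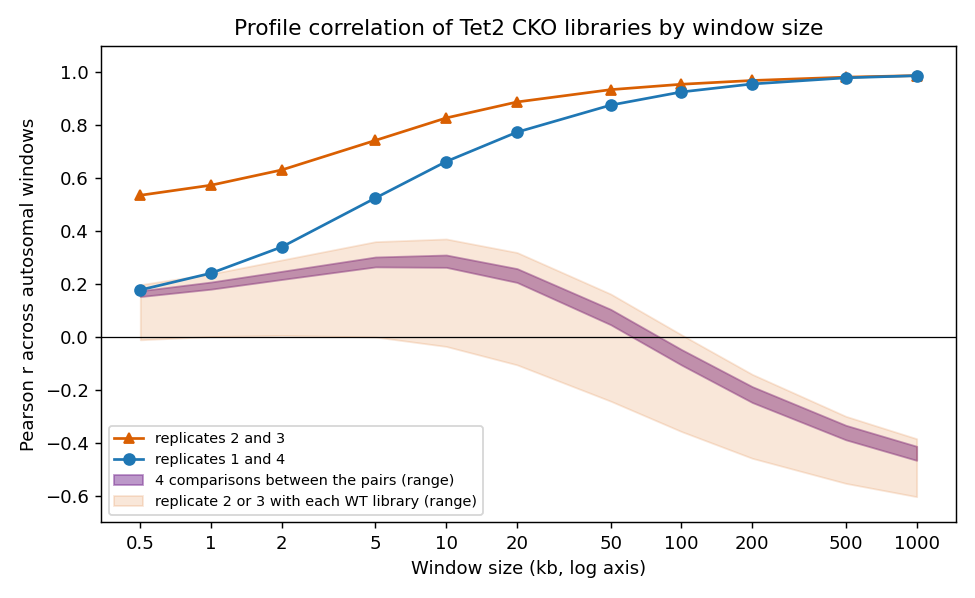
Pearson r of log2 levels across autosomal windows (vertical axis) against window size in kb (log axis), for replicates 2 and 3, replicates 1 and 4, the range of the 4 comparisons between these pairs, and the range of replicate 2 or 3 with each WT library. Correlation within each pair rises with window size, whereas between the pairs it peaks near 5 to 10 kb and lies below 0 from 100 kb upward with the filters used; at 100 kb its highest value is 0.484 without the low-count filter and 0.0998 with no bins left out.

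The split into local and broad patterns was also made inside 17086 windows of 100 kb whose 10 parts of 10 kb were all complete. Deviations of the 10 kb levels from their own 100 kb mean correlated at 0.763 between replicates 2 and 3 and at 0.490 between replicates 1 and 4. Between the pairs they correlated at 0.383 to 0.426. The 100 kb means themselves correlated at -0.022 to 0.071 between the pairs, against 0.911 for replicates 2 and 3 and 0.906 for replicates 1 and 4. The local relief was also steeper in replicates 2 and 3, with an SD of the 10 kb deviations of 0.92 and 0.90 log2 units, against 0.54 in replicate 1 and 0.51 in replicate 4. At the broad scale the SDs were 0.52 and 0.50, against 0.43 and 0.39. WT replicates 1, 2 and 3 had SDs of 0.53, 0.54 and 0.50 for the 10 kb deviations, and 0.76, 0.42 and 0.38 at the broad scale.

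Each autosome showed the split between the pairs at 100 kb, the only window size at which correlations were taken by chromosome. By chromosome, the 100 kb correlation of replicates 2 and 3 ran from 0.940 on chromosome 11 to 0.962 on chromosome 6, and that of replicates 1 and 4 from 0.892 on chromosome 3 to 0.943 on chromosome 17. The lowest value between the pairs was -0.210, on chromosome 7, and the highest was 0.083, on chromosome 11. The highest value also lay above 0 on chromosomes 3, 10, 16 and 18, at 0.035, 0.0035, 0.0062 and 0.032. Of the richest 5% of 100 kb windows in each library (1197 windows), replicates 2 and 3 shared 993 (83.0%) and replicates 1 and 4 shared 865 (72.3%). Replicate 1 shared 14 with replicate 2 and 14 with replicate 3, which is 1.17% of each list, and replicate 4 shared 18 and 19 with them. At 100 kb the richest windows of the pairs thus hardly coincided, and at 10 kb they coincided in part. Of the richest 11348 windows of 10 kb, replicates 2 and 3 shared 9502 (83.7%), replicates 1 and 4 shared 4894 (43.1%), and the 4 comparisons between the pairs shared 1856 to 2096 (16.4% to 18.5%).

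At 100 kb, differences within a pair stayed small beside those between the pairs. The SD of the log2 difference across 100 kb windows was 0.18 for replicates 2 and 3 and 0.18 for replicates 1 and 4, and it ran from 0.77 to 0.82 for the 4 comparisons between the pairs. A difference of 2-fold or more was seen in 0.00417% of windows within either pair and in 21.9% to 25.9% of windows between the pairs. The chi-square per window, which is 1 for independent reads and 2 for reads that come in twos, was 4.22 for replicates 2 and 3, 5.28 for replicates 1 and 4, and 93.6 to 99.0 between the pairs. At 10 kb the gap was narrower, with an SD of 0.65 for replicates 2 and 3, 0.58 for replicates 1 and 4, and 1.09 to 1.16 between the pairs. Differences of 2-fold or more were then seen in 12.0% and 8.75% of windows within these pairs, and in 42.2% to 44.1% between them.

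Windows were then listed in which both replicates 2 and 3 differed by at least 2-fold, in the same direction, from both replicates 1 and 4 (on a scale of log2 of RPM plus 5 at 100 kb or plus 0.5 at 10 kb, which understates folds at low levels). At 100 kb, 1378 windows (5.75%) were higher in replicates 2 and 3 and 2051 (8.56%) were lower. At 10 kb, 17083 windows (7.53%) were higher and 29594 (13.0%) were lower. These percentages belong to the contrast that chose the pairs, and nothing is read from them. Without any fold limit, the pairs did not overlap in 42.5% of 100 kb windows in the higher and 47.8% in the lower direction, and in 25.7% and 45.5% of 10 kb windows. Which direction prevailed rested on the scaling. With each library scaled by its median window, 1841 windows of 100 kb were higher and 1598 lower, and at 10 kb 33732 were higher and 12371 lower. With median-of-ratios factors, 1948 were higher and 1538 lower at 100 kb, and 29457 and 15592 at 10 kb. The median log2 difference between the pairs at 10 kb lay between -0.37 and -0.32 with the scaling by kept reads, and between 0.081 and 0.10 with the median window. Without replicate 4 the higher windows rose to 2217 at 100 kb and 26775 at 10 kb, and the lower windows at 10 kb rose to 47322 without replicate 2 and 49559 without replicate 3, since fewer libraries then had to meet the criterion. The counts also moved with other settings. With no bins left out, so that the high-count reads enter each total, 0 windows of 100 kb were higher and 6666 lower, and at 10 kb 233 and 59780. With 4 times the pseudocount the counts were 278 and 406 at 100 kb and 10906 and 11296 at 10 kb. Just inside and outside the limit, the smallest difference was 1.00 log2 unit on either side in each of these lists.

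The 100 kb windows higher in replicates 2 and 3 were of middling to low level in the other libraries. Their median level was 86.1 RPM in replicate 2 and 87.4 in replicate 3, and 33.4 and 34.3 RPM in replicates 1 and 4. In WT it was 18.1, 35.6 and 37.4 RPM in replicates 1, 2 and 3. Over all 100 kb windows compared, the medians lay close together, at 38.4, 36.8, 36.6 and 38.9 RPM in replicates 1, 2, 3 and 4. None of the 3 WT libraries reached the level of replicate 2 or 3 in any of the 1378 windows. WT replicate 2 lay at or below the higher of replicates 1 and 4 in 49.8% of them, and WT replicate 3 in 32.2%. At 10 kb the higher windows were instead above the typical level in the other libraries, except in WT replicate 1. Their medians were 4.86 and 4.88 RPM in replicates 1 and 4, and 2.73, 5.50 and 5.68 RPM in WT. Over all 10 kb windows compared, the medians were 3.90 and 3.94 RPM in replicates 1 and 4, and 3.15, 3.86 and 3.95 RPM in WT.

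The window at chromosome 13, 61500001 to 61600000, had the largest separation, ranked by the smallest of the 4 differences between the pairs. It held 146 RPM in replicate 2 and 141 RPM in replicate 3 (1629 and 1699 reads), against 42.1 RPM in replicate 1 and 38.5 RPM in replicate 4 (528 and 537 reads). WT replicates 1, 2 and 3 had 19.7, 39.8 and 42.7 RPM. Replicates 2 and 3 alone were high there, by 1.63 to 1.80 log2 units, and the remaining libraries except WT replicate 1 lay within a narrow band. At chromosome 14, 51200001 to 51300000, replicates 2 and 3 had 174 and 163 RPM, replicates 1 and 4 had 50.7 and 50.2 RPM, and WT had 24.7, 53.6 and 47.7 RPM. At chromosome 7, 23200001 to 23300000, the levels were 168 and 171 RPM in replicates 2 and 3, 52.7 and 50.5 RPM in replicates 1 and 4, and 25.5, 57.9 and 63.8 RPM in WT. In both windows the pairs were far apart and WT replicate 1 was the lowest library. Chromosome 3 held 3 of the 10 leading windows, at 61900001 to 62000000, 90900001 to 91000000 and 91500001 to 91600000. In the last of these, replicates 2 and 3 had 111 and 102 RPM, replicates 1 and 4 had 29.1 and 33.1 RPM, and WT had 14.6, 31 and 34.4 RPM. The other 4 leading windows were at chromosome 16, 59300001 to 59400000, chromosome 14, 125100001 to 125200000, chromosome 5, 109300001 to 109400000, and chromosome 9, 36400001 to 36500000. Their levels ran from 117 to 186 RPM in replicates 2 and 3 and from 37.4 to 61.7 RPM in replicates 1 and 4. WT replicate 1 was the lowest of the 7 libraries in each of the 10 windows.

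The 100 kb windows lower in replicates 2 and 3 were among the rich ones of the other libraries. Their median level was 20.5 RPM in replicate 2 and 21.6 in replicate 3, against 63.2 RPM in replicate 1, 60.7 in replicate 4, and 89.4, 60.4 and 58.5 RPM in WT. No WT library came down to the level of replicate 2 or 3 in any of the 2051 windows. The strongest separation was at chromosome 5, 125500001 to 125600000, with 20.7 RPM in replicate 2 and 24.1 RPM in replicate 3 (231 and 291 reads). Replicates 1 and 4 had 122 and 120 RPM there (1526 and 1679 reads), and WT had 233, 92.4 and 99.8 RPM. Replicates 2 and 3 were thus the lowest libraries by 2.11 to 2.30 log2 units below replicates 1 and 4. At chromosome 11, 68000001 to 68100000, replicates 2 and 3 had 16.0 and 17.7 RPM, replicates 1 and 4 had 81.6 and 81.2 RPM, and WT had 138, 83.8 and 68.7 RPM. At chromosome 14, 25800001 to 25900000, replicates 2 and 3 had 11 and 14.4 RPM, replicates 1 and 4 had 65.2 and 67.6 RPM, and WT had 89.4, 62.7 and 61.3 RPM. WT replicate 1 was the highest library in both, and replicates 1 and 4 differed by less than either differed from replicates 2 and 3. The other 7 leading windows were at chromosome 16, 35200001 to 35300000, chromosome 1, 191600001 to 191700000 and 62800001 to 62900000, chromosome 2, 35500001 to 35600000 and 166400001 to 166500000, chromosome 7, 144100001 to 144200000, and chromosome 4, 153800001 to 153900000. Their levels ran from 9.87 to 26.0 RPM in replicates 2 and 3 and from 48.3 to 105 RPM in replicates 1 and 4. These windows are given by their mm9 position only, since no gene annotation of that build was used here.

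**Figure D3:**
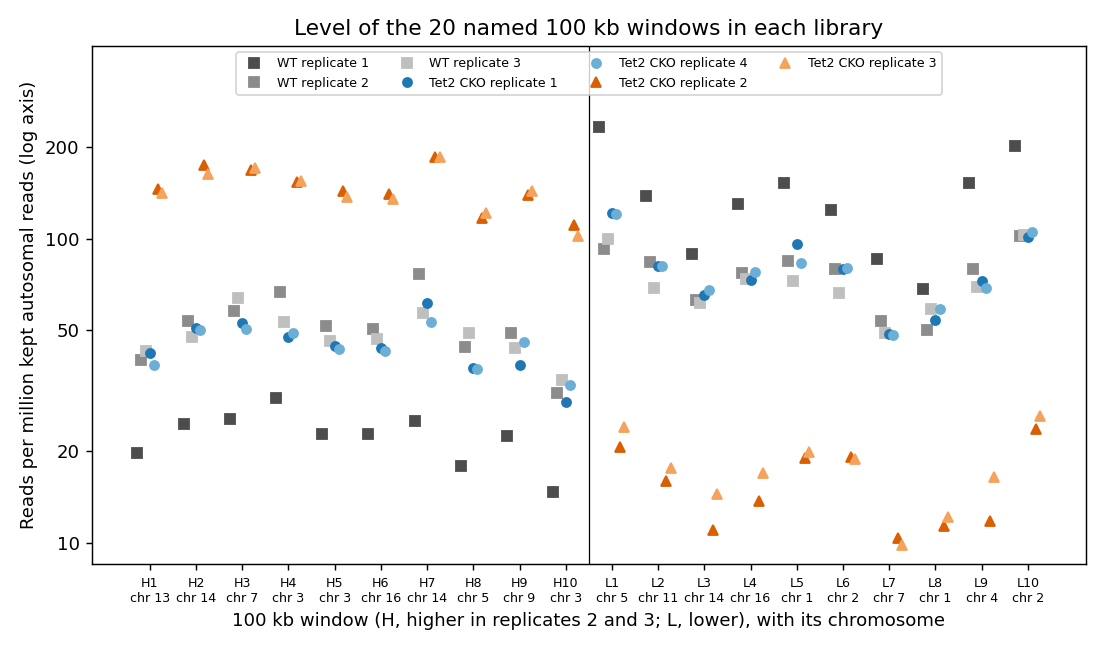
Level in RPM (log axis) of the 20 leading 100 kb windows in each of the 7 libraries, with 1 point per library: H1 to H10 were higher and L1 to L10 lower in replicates 2 and 3 (triangles), each ranked by the smallest difference between the pairs. Replicates 2 and 3 lie together on one side of every window, and WT replicate 1 (dark squares) lies on the far opposite side.

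At 10 kb the separations were larger and rested on fewer reads, so raw reads are given. WT replicate 1 had the most kept reads (28885986), and its raw reads are not like for like with those of the other libraries. The window at chromosome 5, 147850001 to 147860000, held 6 reads in replicate 2 and 10 in replicate 3, against 217 in replicate 1 and 205 in replicate 4 and 622, 179 and 163 in WT. At chromosome 1, 138060001 to 138070000, replicates 2 and 3 had 7 and 6 reads, replicates 1 and 4 had 151 and 164, and WT had 475, 149 and 147. DNA that was well covered in 5 libraries was thus nearly empty in these 2. The next in that direction were at chromosome 12, 113740001 to 113750000, chromosome 2, 75790001 to 75800000, and chromosome 15, 89130001 to 89140000, with 0 to 9 reads in replicates 2 and 3 and 75 to 162 in replicates 1 and 4. In the opposite direction, the window at chromosome 2, 23430001 to 23440000, had 100 and 76 reads in replicates 2 and 3 and 6 and 8 in replicates 1 and 4. The WT libraries had 52, 56 and 56 reads there (1.80, 4.59 and 3.88 RPM), so WT lay between the pairs and replicates 1 and 4 were the low ones. At chromosome 7, 49590001 to 49600000, replicates 2 and 3 had 159 and 148 reads, and replicates 1 and 4 had 18 and 22. WT had 55, 34 and 78 reads there (1.90, 2.79 and 5.40 RPM). The other 3 leading windows, at chromosome 7, 15680001 to 15690000, chromosome 6, 9980001 to 9990000, and chromosome 1, 3120001 to 3130000, had 87 to 218 reads in replicates 2 and 3 and 4 to 41 in replicates 1 and 4.

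Windows of a kind lay next to each other. Of the 100 kb windows lower in replicates 2 and 3, 57.0% belonged to runs of at least 2 adjacent windows, and of the higher ones 42.2%. The longest lower run covered 12 windows at chromosome 5, 112500001 to 113700000. It averaged 25.1 and 26.8 RPM per window in replicates 2 and 3, 75.7 and 71.0 RPM in replicates 1 and 4, and 119, 74.2 and 66.7 RPM in WT. The longest higher run covered 10 windows at chromosome 7, 15400001 to 16400000, with 96.9 and 95.1 RPM per window in replicates 2 and 3, 33.2 and 36.0 RPM in replicates 1 and 4, and 17.7, 35.1 and 40.3 RPM in WT. Both runs are of megabase length, and by definition the pairs were separated in each of their windows. The 4 differences between the pairs correlated between adjacent 100 kb windows at r from 0.699 to 0.735, from 0.388 to 0.405 at a distance of 1 Mb, and from 0.109 to 0.114 at 5 Mb. The differences within a pair carried almost no such memory, at 0.034 for replicates 2 and 3 and 0.074 for replicates 1 and 4 between adjacent windows.

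The WT libraries gave a ranking that used no Tet2 CKO read, although the windows ranked had passed the filter on mean reads over all 7 libraries. Replicates 2 and 3 were chosen because they differed from the other libraries, WT included. Their departure from the WT ranking therefore restates that choice in part and is no independent support. The 23957 windows of 100 kb were sorted into 10 strata by their mean WT level, from the poorest (stratum 1) to the richest (stratum 10). In replicate 1 the median level rose steadily from 21.5 RPM in stratum 1 to 72.5 RPM in stratum 10, and in replicate 4 from 23.2 to 69.2 RPM. Replicates 2 and 3 did not follow this order. In replicate 2 the median was 34.7 RPM in stratum 1, 49.8 RPM in strata 3 and 4, 30.1 RPM in stratum 9 and 31.1 RPM in stratum 10. In replicate 3 strata 1, 3, 4, 9 and 10 had 34.0, 49.0, 49.7, 30.3 and 32.4 RPM. The richest stratum thus held 17.9% of the reads of replicate 1 and 17.0% of replicate 4, but 8.09% of replicate 2 and 8.38% of replicate 3. Of the 2395 windows in the richest stratum, 1010 (42.2%) met the 2-fold criterion for lower in replicates 2 and 3. In that stratum 0 windows met the criterion for higher. Over all 100 kb windows compared, 8.56% were lower and 5.75% higher. In the poorest stratum, 1 window was lower and 111 (4.63%) were higher, and the higher windows were most frequent in stratum 5, at 282 (11.8%). The difference between the richest and the poorest stratum was 1.55 log2 units in replicate 1 and 1.39 in replicate 4, and -0.14 and -0.059 in replicates 2 and 3. With WT replicate 1 left out of the ranking these last values became 0.040 and 0.11, so their sign is not fixed, whereas those of replicates 1 and 4 stayed at 1.53 and 1.39.

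**Figure D4:**
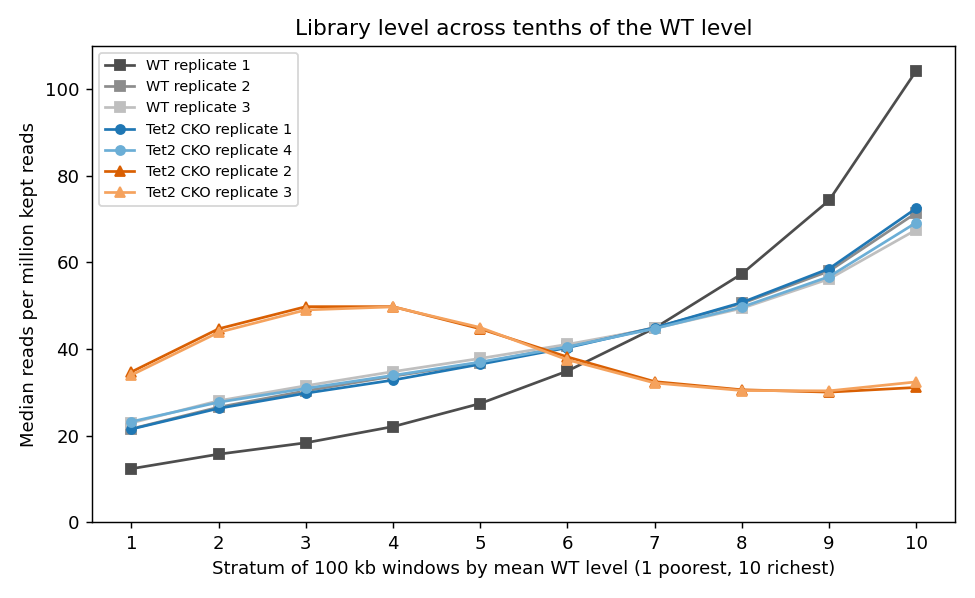
Median level in RPM (vertical axis) of each library across 10 strata of the 100 kb windows sorted by mean WT level (horizontal axis). The WT libraries rise by construction; replicates 1 and 4 (circles) follow WT replicates 2 and 3, while replicates 2 and 3 (triangles) peak at 49.0 to 49.8 RPM in strata 3 and 4 and stay between 30.1 and 32.4 RPM in the 3 richest.

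Whole chromosomes also differed in density between the pairs. The relative density is the number of reads per covered bin of a chromosome divided by that of all autosomes. Mouse chromosomes 11 and 19 are known as gene-dense and chromosome 3 as gene-poor, but gene density was not examined here for any chromosome. The other autosomes are not labelled in this way, so no relation to gene density can be read from these 3. Chromosome 11 had a relative density of 0.890 and 0.888 in replicates 2 and 3, against 1.14 and 1.13 in replicates 1 and 4 and 1.29, 1.13 and 1.12 in WT. Chromosome 19 had 0.883 and 0.878 in replicates 2 and 3, 1.05 and 1.04 in replicates 1 and 4, and 1.12, 1.04 and 1.04 in WT. The densest autosome of replicates 1 and 4 was thus one of the 2 thinnest in replicates 2 and 3. Chromosome 3 went the other way, with 1.08 and 1.09 in replicates 2 and 3, 0.9002 and 0.912 in replicates 1 and 4, and 0.782, 0.9004 and 0.917 in WT. The direction did not follow the density in WT on every chromosome. Chromosome 4, with 1.102, 1.06 and 1.05 in WT, was denser in replicates 2 and 3, at 1.07 and 1.08, than in replicates 1 and 4, at 1.051 and 1.0496. Chromosome 7 was denser too, at 1.04 and 1.03 against 0.995 and 0.9998. Chromosome 9 had 0.925 and 0.915 in replicates 2 and 3 and 1.05 and 1.04 in replicates 1 and 4. In all, 10 autosomes were denser in both of replicates 2 and 3 than in both of replicates 1 and 4, 8 were thinner, and on chromosome 18 the pairs overlapped. The smallest gap between the pairs was on chromosome 15, at 1.010 and 1.006 against 1.02 and 1.02.

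The higher and lower 100 kb windows were unevenly spread over chromosomes. Over all 100 kb windows compared, 5.75% were higher and 8.56% lower with the scaling by kept reads, which all shares here use. As said above, which direction prevailed rested on that scaling. Chromosome 7 had the highest share of higher windows, with 168 of 1421 (11.8%), and chromosome 11 the lowest, with 26 of 1188 (2.19%). Lower windows were most frequent on chromosome 11, with 155 (13.0%), and least on chromosome 3, with 67 of 1565 (4.28%). The lean also varied along chromosomes, which in the mouse have the centromere at the start. Between 10 and 20 Mb from the first covered bin, 208 of 1875 windows (11.1%) were higher and 36 (1.92%) lower in replicates 2 and 3. Median levels there were 44.3 and 43.8 RPM in replicates 2 and 3 and 33.7 and 34.9 RPM in replicates 1 and 4. Between 2 and 5 Mb from the last covered bin, 16 of 568 windows (2.82%) were higher and 135 (23.8%) lower, with medians of 30.9 and 30.3 RPM in replicates 2 and 3 and 52.8 and 51.8 RPM in replicates 1 and 4. This stretch was therefore rich in replicates 1 and 4 and poor in replicates 2 and 3, but the last 2 Mb were not. There the medians were 36.6 RPM in both replicates 2 and 3 and 37.2 and 38.0 RPM in replicates 1 and 4, with 35 of 383 windows (9.14%) higher and 36 (9.40%) lower.

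**Figure D5:**
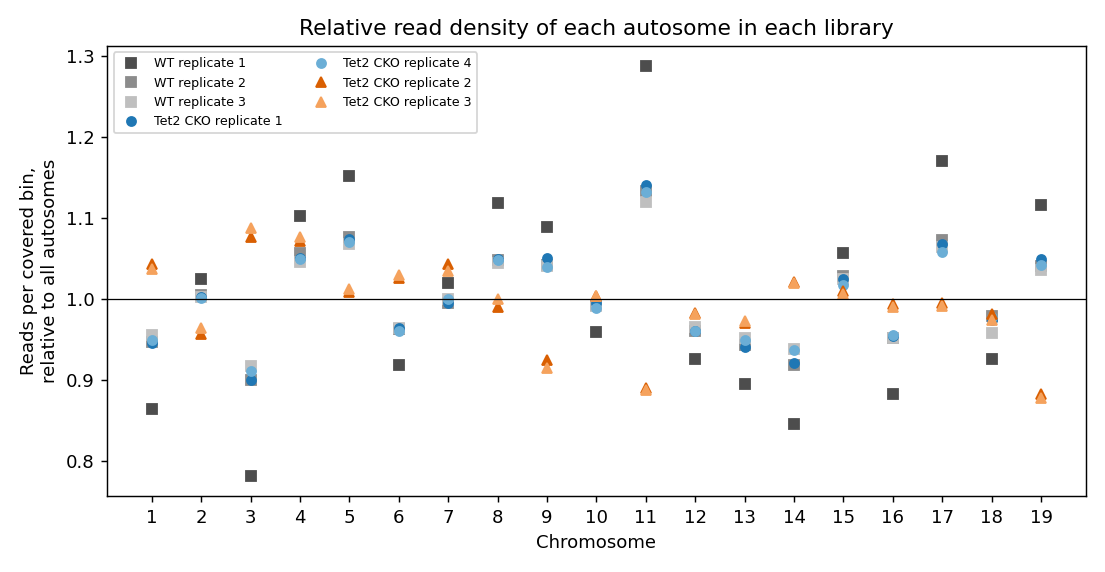
Reads per covered bin of each autosome relative to all autosomes (vertical axis), for chromosomes 1 to 19 (horizontal axis), with 1 point per library. Replicates 1 and 4 (circles) lie with WT replicates 2 and 3, and replicates 2 and 3 (triangles) lie on the other side of them on chromosomes such as 3, 9, 11 and 19.

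The range of levels was wider in replicates 2 and 3 than in replicates 1 and 4 at both window sizes. At 100 kb, the level at the 95% quantile was 4.89 and 4.85 times that at the 5% quantile in replicates 2 and 3, 3.48 and 3.10 times in replicates 1 and 4, and 8.63, 3.36 and 2.99 times in WT. At 10 kb the ratios were 23.6 and 22.8 in replicates 2 and 3, 7.0 and 6.0 in replicates 1 and 4, and 13.7, 6.75 and 5.76 in WT. After thinning, the coefficient of variation beyond that of independent reads in 500 bp bins was 215% and 216% in replicates 2 and 3 and 130% and 126% in replicates 1 and 4. At 10 kb it was 115% and 117% against 60.9% and 57.4%, and at 100 kb 54.6% and 54.7% against 43.3% and 39.99%. The coefficient was higher in replicates 2 and 3 than in replicates 1 and 4 at each scale, and the values of replicates 2 and 3 lay close to each other. In WT replicates 1, 2 and 3 it was 143%, 131% and 121% in 500 bp bins and 91.0%, 60.5% and 56.1% at 10 kb. At 100 kb the WT values were 77.1%, 42.0% and 38.4%, so WT replicate 1 lay above replicates 2 and 3 there.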

How the data were processed

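The deposited table, made by the authors, holds whole-number read counts per 500 bp bin for 7 libraries, not normalized. Per the submitters' processing notes, Bowtie2, HOMER and DESeq2 were used on the build mm9, and per the labels' protocols 5hmC was enriched with an antibody and sequenced on an Illumina HiSeq 2000. Roles and versions, and the treatment of duplicate or multiply matching reads, are not given in the sources used here. No input library was part of the analysis.

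Bins on chromosomes 1 to 19 with a mean of at most 100 reads were kept and summed by bin start to windows of 10 and 100 kb. Levels are RPM, reads per 1000000 kept reads. Log2 values used a pseudocount of 0.5 (10 kb) or 5 (100 kb). A window was listed when all 4 differences between the pairs were at least 2-fold in 1 direction. Windows named are the 10 (100 kb) or 5 (10 kb) in each direction with the largest smallest difference, at most 1 per Mb. Thinning drew reads without replacement. Chi-square values compare 2 libraries with their totals. The window calls were first run on simulated counts, drawn in twos around 1 shared profile with known changes put in. Real libraries of a pair differed by more than that setting allows, with a chi-square per 100 kb window of 4.22 and 5.28. The simulation therefore checks the code and gives no error rate for the windows listed. Python 3.11.15, numpy 2.4.6, pandas 2.3.3 and scipy 1.17.1 were used.

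The libraries compared, the rules and the lists were chosen with earlier results of these data known. Window sizes other than 10 and 100 kb, and the split into local and broad patterns, were added after the data were examined. No test was made, because the pairs were chosen on the profiles compared. Base composition and genes were not examined, since no mm9 genome or annotation was used here. Alternatives were other pseudocounts, filters, scalings, folds, bounds for high-count bins, thinning, and each library left out.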

Additional observations from a re-analysis of the deposited data

How the results depend on the processing

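All 30 named windows kept their direction in all 13 alternatives, and 380 of 390 values stayed past the fold limit. The 10 that did not are the higher 100 kb windows with no bins left out. The named windows were picked as the most separated in these same data. Removing the low-count filter or lowering the fold limit leaves their values unchanged. Leaving out 1 library cannot shrink the smallest difference between the pairs. Those settings could not have failed, so the tally does not measure robustness. Counts are given as higher and lower in replicates 2 and 3, first at 100 kb and then at 10 kb. With 4 times the pseudocount they were 278, 406, 10906 and 11296. With 1.5-fold they were 5049, 5725, 31979 and 56582. With no bins left out, so that the high-count reads enter each total, they were 0, 6666, 233 and 59780. At 10 kb, scaling by the median window gave 33732 higher and 12371 lower, and median-of-ratios factors 29457 and 15592. Leaving out 1 library gave 1783 to 2217 higher windows at 100 kb, and 22804 to 26775 higher and 43292 to 49559 lower at 10 kb. With no low-count filter, which adds nearly empty windows, the 100 kb correlation of replicates 2 and 3 was 0.974 and the highest between the pairs 0.484, and at 10 kb 0.856 and 0.511. With no bins left out these were 0.965 and 0.0998 at 100 kb, and 0.873 for replicates 2 and 3 at 10 kb. That last value was 0.769 with 0.1 times the pseudocount, 0.873 with 4 times it, and 0.783 as Spearman's rho. Richest minus poorest WT stratum in replicates 2 and 3 was 0.040 and 0.11 without WT replicate 1, and 0.011 and 0.099 with 20 strata. Apart from the settings whose construction is given, the cause was not tested. Thinning changed none of the counts by more than 1.5 times. No paired analysis was possible because the comparison lies within 1 group and carries no test.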

Other observations

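The X chromosome lay outside the rule that defined the windows, and there the pairs were less opposed than on the autosomes. Across 1451 windows of 100 kb on the X, replicates 2 and 3 correlated at 0.961, replicates 1 and 4 at 0.806, and the 4 comparisons between the pairs gave 0.424 to 0.447, where the highest value on any autosome was 0.083. The median X window held 37.2 RPM in both replicate 2 and replicate 3, which is 1.01 and 1.02 times their median autosomal window. It held 19.1 RPM in replicate 1 and 19.6 RPM in replicate 4, or 0.498 and 0.504 times the autosomal median, and the WT libraries had ratios of 0.369, 0.523 and 0.519. The SD of log2 levels along the X was 0.62 and 0.63 in replicates 2 and 3 and 0.35 and 0.34 in replicates 1 and 4. The same libraries chose the pairs, so these values are no independent support, and no cause was tested.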
